A study of Mus musculus with 16 samples.

Results

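Choroid plexus genes were followed as a set of 10 in RNA sequencing of mouse hippocampus: Ttr, Kl, Clic6, Otx2, Aqp1, Slc4a5, Sostdc1, Tmem72, Prlr and Enpp2. They were taken by symbol from a table of 49315 genes, each matched 1 row, and all 10 were among the 17469 genes with enough counts to test. The 16 libraries came from 16 animals named by a tag in the column headers, in 4 groups of 4: wild types and Kcna1 KO (knockout) mice, each fed either a Standard Diet or a Ketogenic Diet. Kcna1 is the gene of a voltage-gated potassium channel subunit, and its loss causes seizures in mice. A ketogenic diet is rich in fat and poor in carbohydrate. Strain, allele, age, sex and the length of the diet are not given in the sources used here. Nothing in them says whether the animals were litter mates, so p-values measure the spread between these animals.

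The choroid plexus is a fold of epithelium over a vascular stroma that hangs in the ventricles and secretes the cerebrospinal fluid. In the lateral ventricle it is attached along the fimbria, beside the hippocampus, so a dissected hippocampus can carry some of it. Its epithelium is known for very high transthyretin expression, for water and bicarbonate transport across its apical face, and for secreted factors. The 10 genes are used as its markers, though some of them are known in other brain cells too. In bulk tissue, fewer cells of a type and less RNA per cell cannot be told apart.

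The promoters of 4 members are shown, those with a window free of annotated exons, so that Otx2 and Aqp1, of high likeness to Ttr over the 16 libraries, can be set beside Kl and Prlr, of lower likeness. RefSeq windows on GRCm38.p6 were at hand for 6 of the 10 members, and 4 of those members had at least 1 in which the 250 bases before the start held no annotated exon of GENCODE M21. The most upstream such window of each is printed; that of Otx2 lies inside the gene, before an inner start, and the RefSeq start of Aqp1 lies upstream of the GENCODE gene. TAATCC, a site that OTX2 binds, and TATAAA were searched on both strands, the motifs do not overlap, and matches are in capitals. Each line runs 5′ to 3′ on the gene's strand.
Otx2, chr14:48667645-48667894, minus strand: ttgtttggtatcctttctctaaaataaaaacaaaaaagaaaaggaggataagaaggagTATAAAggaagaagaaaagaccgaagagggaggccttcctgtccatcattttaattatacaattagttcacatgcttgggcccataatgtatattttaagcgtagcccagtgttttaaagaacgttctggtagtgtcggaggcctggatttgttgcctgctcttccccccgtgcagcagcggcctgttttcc
Aqp1, chr6:55336049-55336298, plus strand: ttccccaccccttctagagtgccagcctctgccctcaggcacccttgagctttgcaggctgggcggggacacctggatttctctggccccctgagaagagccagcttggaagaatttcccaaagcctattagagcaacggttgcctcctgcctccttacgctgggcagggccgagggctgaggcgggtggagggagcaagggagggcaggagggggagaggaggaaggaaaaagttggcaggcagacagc
Kl, chr5:150952357-150952606, plus strand: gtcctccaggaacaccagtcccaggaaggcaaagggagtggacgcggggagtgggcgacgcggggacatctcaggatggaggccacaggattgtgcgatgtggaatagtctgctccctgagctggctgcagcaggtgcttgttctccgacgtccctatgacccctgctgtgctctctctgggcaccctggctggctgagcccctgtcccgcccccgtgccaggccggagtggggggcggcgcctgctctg
Prlr, chr15:10176988-10177237, plus strand: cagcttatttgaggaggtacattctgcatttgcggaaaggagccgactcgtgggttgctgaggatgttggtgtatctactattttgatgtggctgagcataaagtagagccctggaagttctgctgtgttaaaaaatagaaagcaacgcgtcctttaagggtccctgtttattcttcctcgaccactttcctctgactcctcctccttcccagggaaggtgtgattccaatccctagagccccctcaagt
TATAAA occurred in the Otx2 window, 192 bases before the start, and TAATCC in none of the 4. Of all 11 windows of the 6 members 1 held TAATCC, at a start of Otx2 further downstream, 211 bases before it; that window overlaps an exon and is not shown. Of 32851 windows of 250 bases, 6.25% held TAATCC and 12.4% held TATAAA. GC content was 42.0% for Otx2, 48.0% for Prlr, 62.0% for Aqp1 and 66.8% for Kl, against a median of 52.4% over all windows. No match says only that these letters are not in the window.

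Library totals ran from 13440230 to 22309504 counts. Values below are CPM, counts per 1000000 of the effective library size, unless stated otherwise. The hippocampal markers (12 of 12 tested, among them Prox1, Neurod2 and Zbtb20) summed to between 1345 and 1931 CPM per library, and 0 of them were at 0 counts in any library. The targeted gene, Kcna1, measured 107 to 130.1 CPM in the 8 wild type libraries and 43.4 to 47.2 CPM in 7 of the 8 knockout libraries. The library labelled knockout KC888LL, on the standard diet, measured 82.0 CPM and was kept under its label.

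The level of choroid transcripts differed widely between libraries of the same group, and the 4 groups accounted for 0.289 of the variance of log2 CPM of Ttr. Ttr (ENSMUSG00000061808, GRCm38 chromosome 18, 20665280 to 20674321), the thyroid hormone and retinol carrier that the choroid epithelium secretes, spanned a 246-fold range. Among wild types fed the standard diet it was at 971 CPM in KC894RLL, 250.4 CPM in KC897RR, 25.2 CPM in KC890RL and 15.7 CPM in KC900RLL. Among knockouts fed that diet it was at 508 CPM in KC893RL, 320.1 CPM in KC872RL, 167 CPM in KC873RR and 24.4 CPM in KC888LL. In wild type on the ketogenic diet KC844RR measured 957 CPM, against 20.2 CPM in KC842L, 12.6 CPM in KC846L and 10.3 CPM in KC843RL. In the knockout on the ketogenic diet the values were 31.2 CPM in KC935LL, 21.6 CPM in KC934R, 17.2 CPM in KC916RRL and 3.95 CPM in KC913RR.

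Ttr thus fell into 2 ranges with an empty stretch between 31.2 and 167 CPM. A line at 100 CPM, drawn after the values were seen and used only to describe, puts 6 libraries above it and 10 below: 2 of 4 wild types and 3 of 4 knockouts fed the standard diet lay above, against 1 of 4 wild types and 0 of 4 knockouts fed the ketogenic diet. The ranges of all 4 groups overlapped, and the knockout on the ketogenic diet reached no further than 31.2 CPM. Counting error was small beside this spread. By total count KC913RR held 3.85 CPM (95% Wilson interval 2.98 to 4.96) and KC894RLL 969 CPM (95% Wilson interval 953 to 985), intervals that cover counting error only.

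**Figure D1:**
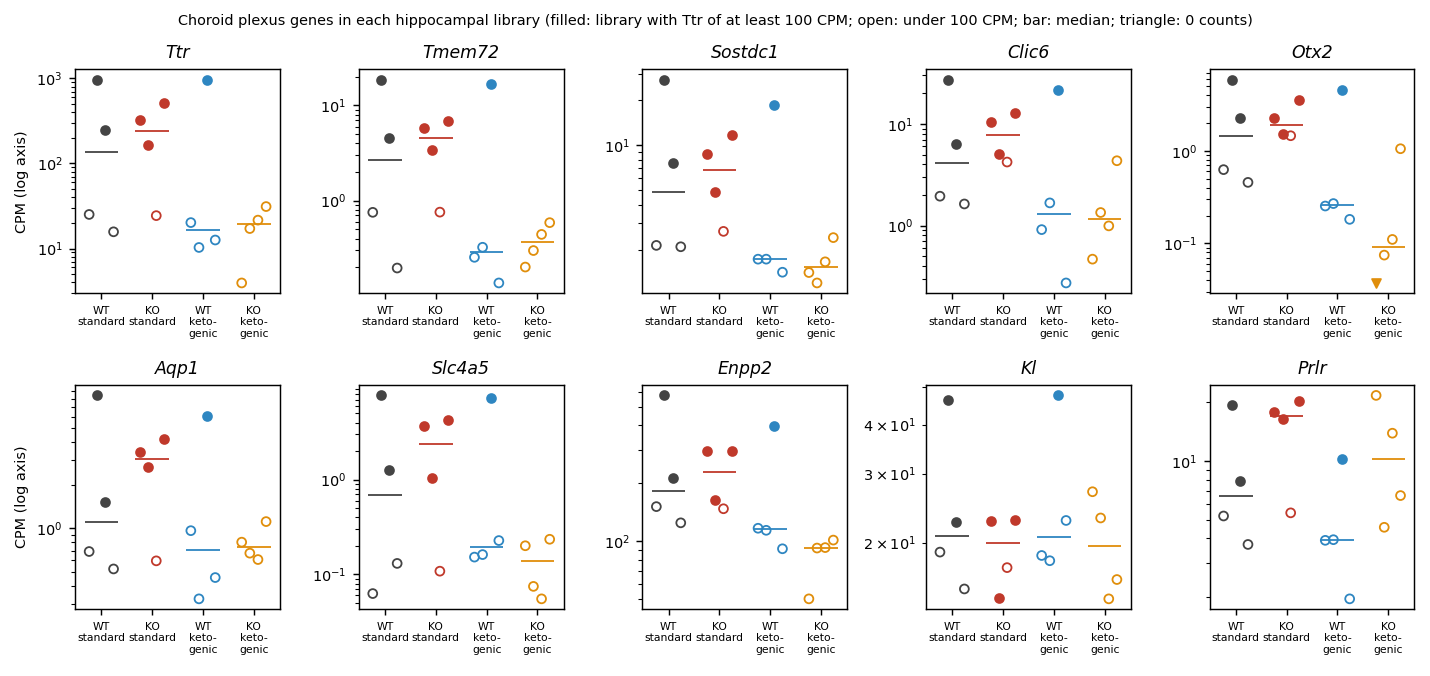
CPM (log axis) of the 10 choroid plexus genes in the 16 libraries by group, with 1 point per animal and a bar at the group median. Filled points are the 6 libraries with Ttr of at least 100 CPM, which also lead Tmem72, Sostdc1, Clic6, Otx2, Aqp1, Slc4a5 and Enpp2. The triangle marks 0 Otx2 counts in KC913RR.

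Among genes of transport and membrane function, Aqp1, Slc4a5, Clic6 and Tmem72 were high in the same libraries. Tmem72 (ENSMUSG00000048108, chromosome 6, 116679063 to 116716913), a transmembrane protein gene, was at 18.7 CPM in KC894RLL, 16.9 CPM in KC844RR, 6.85 CPM in KC893RL, 5.73 CPM in KC872RL, 4.59 CPM in KC897RR and 3.44 CPM in KC873RR. In the other 10 libraries it lay between 0.137 and 0.757 CPM, or 3 to 14 counts. Slc4a5 (ENSMUSG00000068323, chromosome 6, 83219828 to 83304945), a sodium bicarbonate cotransporter of the epithelium, ranged from 1.05 to 7.74 CPM in the 6 libraries and from 0.0552 to 0.235 CPM, or 1 to 5 counts, in the other 10. At that depth its levels among the 10 could not be ordered.

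Aqp1 (ENSMUSG00000004655, chromosome 6, 55336432 to 55348555), the water channel of the apical membrane, ranged from 1.53 to 8.42 CPM in the 6 libraries and from 0.324 to 1.12 CPM in the 10. Clic6 (ENSMUSG00000022949, chromosome 16, 92485736 to 92541243), an intracellular chloride channel family gene, ranged from 5.07 to 27.3 CPM and from 0.273 to 4.35 CPM. The 2 ranges did not meet for Tmem72, Slc4a5, Aqp1 or Clic6. A second transcript on the same strand overlaps Clic6, so a part of its counts is uncertain.

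Otx2 (ENSMUSG00000021848, chromosome 14, 48657677 to 48673819), the homeobox transcription factor required for choroid plexus development, had the fewest counts of the 10, 405 over all libraries. It measured 5.92 CPM in KC894RLL, 4.596 CPM in KC844RR, 3.55 CPM in KC893RL, 2.30 CPM in KC897RR, 2.26 CPM in KC872RL and 1.52 CPM in KC873RR. It was not detected in KC913RR, where 0 counts allow up to 0.201 CPM. An antisense gene, Otx2os1, overlaps it and had at most 7 counts in a library. A further gene model, Gm49154, overlaps Otx2 on its own strand, so a part of its counts is uncertain.

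Otx2 and Clic6 stood higher in a pair of libraries than their Ttr did. KC888LL and KC935LL held Otx2 at 1.46 and 1.06 CPM and Clic6 at 4.22 and 4.35 CPM, while the other 8 libraries of low Ttr reached at most 0.628 and 1.95 CPM. Sostdc1 was also above those 8 in both, at 2.65 and 2.41 CPM against at most 2.14 CPM. The mean log2 CPM of all 10 members, which include Otx2, Clic6 and Sostdc1, was 1.98 and 2.04 in the pair and at most 1.74 in the other 8. The pair was singled out after these values were seen. Of the 11 other gene lists set beside this pair, 10 had summed levels whose range met that of the other 8 libraries. The blood list did so with the pair on either side, at 90.0 CPM in KC888LL and 17.4 CPM in KC935LL. The other 8 ranged from 18.2 to 77.8 CPM. The further choroid list stood at 429.7 to 459.8 CPM against 388 to 506 CPM, with 2 of its 25 genes above all 8 in both. That sum is mostly Atp2b3, Car12 and Slc29a4, which did not follow Ttr over the 16 libraries, so it says little of choroid content. The mean log2 CPM of that list's tested genes did not set the pair apart. It was 1.635 in KC888LL and 1.443 in KC935LL, against 1.637 in KC890RL and 1.479 in KC842L. The thalamic list, genes of the tissue that lies under the hippocampus, summed to 162 and 137 CPM in KC888LL and KC935LL and to between 50.1 and 93.6 CPM in the other 8. Of its 9 genes 1 was above all 8 in both libraries, and 0 were at 0 counts in any library. By group the list ranged from 78.1 to 158 CPM in wild types and 63.7 to 162 CPM in knockouts fed the standard diet, and from 65.3 to 89.8 CPM and 50.1 to 137 CPM in those fed the ketogenic diet. Its part in the Otx2 and Clic6 values was not tested.

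Of the secreted products, Sostdc1 (ENSMUSG00000036169, chromosome 12, 36314139 to 36318452), an antagonist of BMP and Wnt signalling, followed Ttr closely. It measured 27.6 CPM in KC894RLL, 18.5 CPM in KC844RR, 11.8 CPM in KC893RL, 8.70 CPM in KC872RL, 7.58 CPM in KC897RR and 4.89 CPM in KC873RR. In the 10 libraries of low Ttr it lay between 1.20 and 2.65 CPM, a floor narrower than the range of Ttr there.

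Enpp2 (ENSMUSG00000022425, chromosome 15, 54838901 to 54952892) encodes autotaxin, the secreted enzyme that makes lysophosphatidic acid, and is known in oligodendrocytes as well as the choroid epithelium. It measured 573 CPM in KC894RLL, 397 CPM in KC844RR, 295 CPM in KC893RL, 293 CPM in KC872RL, 214 CPM in KC897RR and 165 CPM in KC873RR. The 10 libraries of low Ttr held between 50.4 and 152 CPM, with a median of 108 CPM. Enpp2 was therefore highest where Ttr was highest, and it kept a substantial level where Ttr was near its lowest.

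Among those 10 libraries Enpp2 moved with the oligodendrocyte list, 14 genes of myelin and mature oligodendrocytes, 0 of them at 0 counts in any library. KC913RR was lowest in both, at 50.4 CPM of Enpp2 and 2117 CPM of the summed list, and KC890RL was highest in both, at 152 and 6791 CPM. The list ranged from 4369 to 6791 CPM in wild types and 5434 to 6005 CPM in knockouts fed the standard diet. Under the ketogenic diet its range was 3617 to 4597 CPM in wild types and 2117 to 3951 CPM in knockouts. How much of Enpp2 came from these cells was not tested.

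Kl (ENSMUSG00000058488, chromosome 5, 150952607 to 150993817) encodes klotho, the co-receptor of FGF23 that is also shed as a circulating protein. It was at 47.5 CPM in KC844RR and 46.3 CPM in KC894RLL, the libraries of highest Ttr. The other 14 libraries lay between 14.4 and 27.0 CPM, and KC873RR, with Ttr at 167 CPM, was at 14.5 CPM. KC913RR, the library of lowest Ttr, had the third highest Kl.

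Prlr (ENSMUSG00000005268, chromosome 15, 10177238 to 10349180), the prolactin receptor, had a different order of libraries. It was highest at 21.7 CPM in KC913RR, where Ttr was lowest, followed by 20.4 CPM in KC893RL, 19.3 CPM in KC894RLL, 17.8 CPM in KC872RL, 16.4 CPM in KC873RR and 13.9 CPM in KC934R. KC844RR had 10.3 CPM with Ttr at 957 CPM, and the remaining 9 libraries ranged from 1.96 to 7.93 CPM. A protein-coding gene model on the same strand overlaps Prlr, so its count is uncertain to that extent.

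Gfap, the astrocyte filament gene that marks reactive astrocytes, was high in the same knockout libraries. It measured 2327 CPM in KC872RL, 2018 CPM in KC913RR, 1340.0 CPM in KC873RR, 1059 CPM in KC934R and 611 CPM in KC893RL, and from 288 to 390.4 CPM in the other 11. These 5 were also the knockout libraries of highest Prlr, and KC894RLL, with Gfap at 353 CPM, was the 1 library above 13.9 CPM of Prlr outside them. The astrocyte list of 7 genes, which does not hold Gfap and had 0 genes at 0 counts in any library, summed to 3859 CPM in KC913RR and 4494 CPM in KC934R, the former below and the latter above the 3926 to 4420 CPM of the other 8 libraries of low Ttr. Of its 7 genes 2 were above all 8 in both. A part of reactive astrocytes in the Prlr values was not tested.

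**Figure D2:**
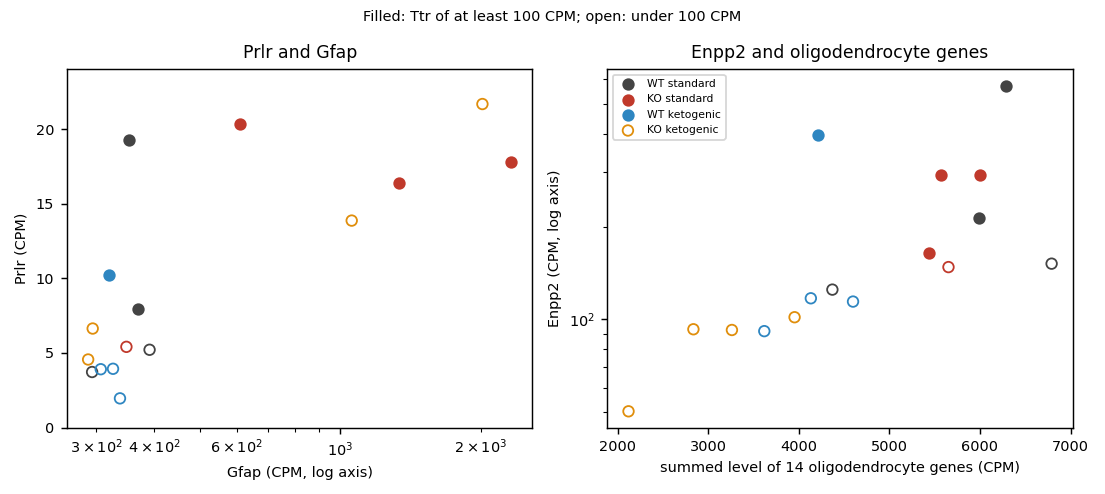
Left, Prlr (CPM) against Gfap (CPM, log axis); right, Enpp2 (CPM, log axis) against the summed CPM of 14 oligodendrocyte genes, with 1 point per library. Among the open points, libraries with Ttr under 100 CPM, Prlr is highest in KC913RR and KC934R, and Enpp2 runs from 50.4 CPM at the lowest list level to 152 CPM at the highest.

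Counts per 1000 Ttr counts show which genes kept a fixed proportion to Ttr. Over the 6 libraries of high Ttr the highest ratio exceeded the lowest by 1.46 times for Clic6, 1.53 times for Tmem72 and 1.57 times for Sostdc1, with medians of 26.7, 18.1 and 27.8 counts. Otx2, Kl, Slc4a5, Enpp2 and Aqp1 varied by 1.91, 2.01, 2.29, 2.38 and 2.63 times. Prlr varied by 9.17 times, from 10.7 to 98.2 counts.

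In the 10 libraries of low Ttr the proportions parted. Tmem72 and Slc4a5 had about the same median, 19.6 against 18.1 counts and 7.54 against 7.78 counts per 1000, but single libraries ran from 10.8 to 50.8 counts for Tmem72 and from 2.49 to 50.8 counts for Slc4a5. Clic6 had a median of 91.0 against 26.7, Sostdc1 97.0 against 27.8, Otx2 19.7 against 7.03 and Aqp1 34.5 against 8.45. The median of Enpp2 was 6039 against 721, that of Kl 942 against 60.2 and that of Prlr 229 against 35.9. The medians of Tmem72 and Slc4a5 rest on few counts in each library.

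**Figure D3:**
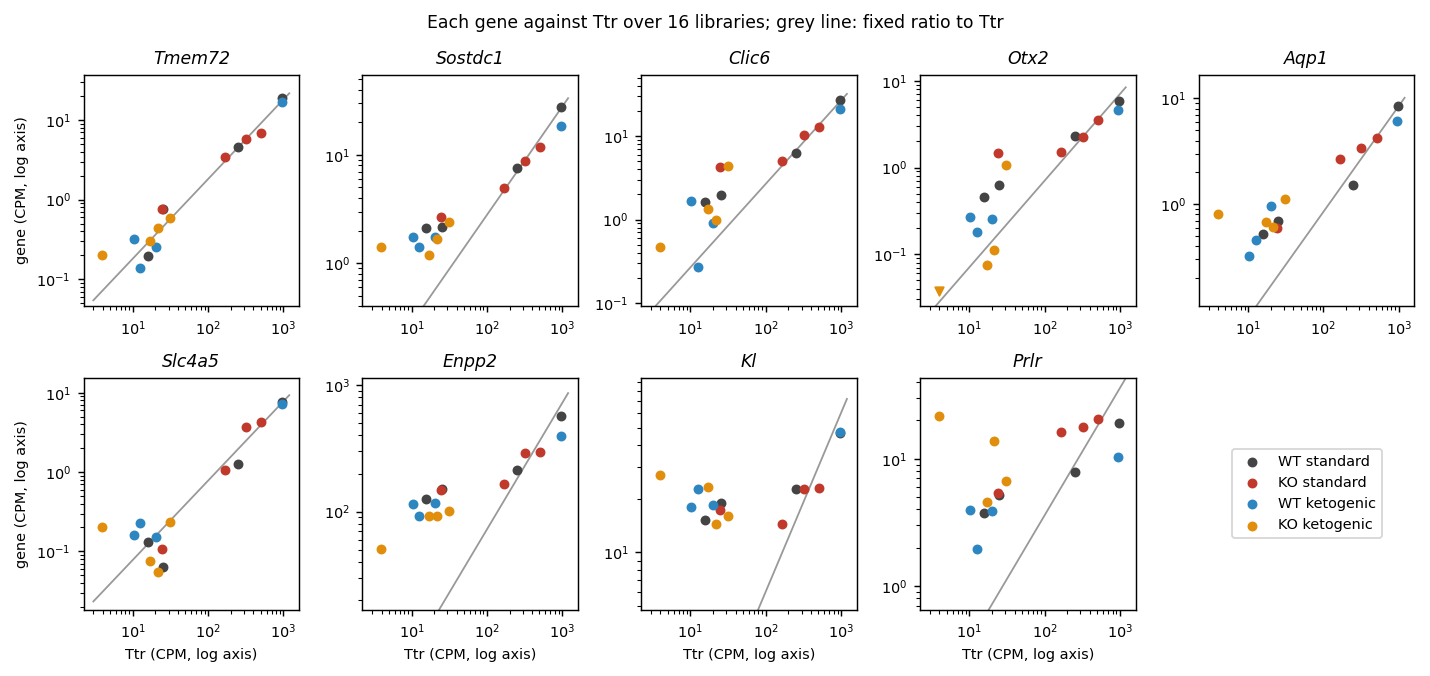
CPM of 9 genes against CPM of Ttr (both log axes) in 16 libraries, coloured by group. The grey line is the fixed proportion given by the median ratio in the 6 libraries of high Ttr; where Ttr is low, all 10 libraries lie above it for Sostdc1, Aqp1, Enpp2, Kl and Prlr, as do the medians of Clic6 and Otx2.

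A comparison of levels between genes needs a scale per length. Per kilobase of merged exons, the mean over 16 libraries was 177 CPM for Ttr, 32.7 CPM for Enpp2, 3.42 CPM for Sostdc1, 2.46 CPM for Kl and 1.61 CPM for Clic6. Aqp1 followed at 0.786 CPM per kilobase, Prlr at 0.664, Otx2 at 0.365, Slc4a5 at 0.287 and Tmem72 at 0.219. Tmem72 and Prlr have merged exon lengths of 17177 and 15339 bases, so these values are low where only a short transcript is made.

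Every tested gene was ranked by Pearson's r of log2 CPM with log2 CPM of Ttr over the 16 libraries, as a measure of likeness with no test, since the libraries lie in 2 ranges of Ttr and share depth and composition. Of 17468 other genes 18 (0.103%) had an r over 0.9, and 7 of the 9 other members were among them. Tmem72 ranked first at 0.98, Sostdc1 second at 0.97, Enpp2 was at rank 5 with 0.94, and Slc4a5, Aqp1, Clic6 and Otx2 lay at ranks 7, 8, 13 and 14 with r from 0.92 to 0.93. Kl ranked 675 at 0.56 and Prlr 766 at 0.54. The median over all genes was -0.0027.

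Likeness was also read within each range of Ttr, a division chosen after seeing the data. Within the 6 libraries of high Ttr, r was 0.95 for Kl and 0.12 for Prlr, and from 0.87, for Aqp1, to 0.98, for Clic6, for the other 7. Within the 10 libraries of low Ttr it was 0.76 for Enpp2, 0.72 for Otx2, 0.65 for Clic6, 0.65 for Tmem72, 0.58 for Sostdc1 and 0.27 for Aqp1. It was -0.34 for Prlr, -0.38 for Slc4a5, on 1 to 5 counts, and -0.68 for Kl. By ranks (Spearman's rho) Prlr turned to 0.27, while Slc4a5 stood at -0.31 and Kl at -0.45. Leaving out KC894RLL and KC844RR, the libraries farthest from the median of Ttr, left r at 0.87 to 0.96 for the 7 members that follow Ttr, 0.49 for Prlr and 0.04 for Kl, whose likeness over 16 libraries rested on that pair.

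Of the 15 genes nearest to Ttr 8 were not members, and 7 of those 8 stood in a list of 25 further choroid plexus genes. Cldn2, a pore-forming claudin of the epithelium's tight junctions, had an r of 0.96, as did the potassium channel gene Kcnj13. Kcne2, a potassium channel subunit, Lbp, Mfrp, Msx1, the coagulation factor gene F5 and 1500015O10Rik, which is not in the list, had r from 0.92 to 0.93. Of the list 23 genes were tested, 9 had an r over 0.9 and the median was 0.87. Its 3 most abundant genes, Atp2b3 at 243 CPM, Car12 at 50.9 CPM and Slc29a4 at 38.7 CPM, had r of 0.15, -0.22 and -0.23. Those 3 did not follow Ttr in this tissue.

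Lists of other cell types had lower medians. The median r was 0.68 for ependymal genes, which include Foxj1, Rsph1 and Rarres2, 0.62 for oligodendrocyte genes, which include Mbp and Mobp, and 0.53 for blood genes. It was 0.42 for stromal and meningeal genes, 0.41 for endothelial genes, 0.32 for microglial genes, 0.19 for thalamic genes, 0.17 for astrocyte genes, 0.05 for mural cell genes and -0.35 for hippocampal neuron genes. No gene of these 10 lists had an r over 0.9, and the highest was 0.81 for Rarres2.

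Differences between groups were tested with edgeR's quasi-likelihood test over all 17469 genes, with Benjamini-Hochberg adjustment. No member passed an adjusted p of 0.05 in any of 5 contrasts, and DESeq2 and limma-voom also called 0 of the 10. The share of all tested genes called was 1.16% for the diet in knockouts, 0.0114% for the diet in wild types, 0.00572% for genotype under the standard diet, 0.0172% for genotype under the ketogenic diet and 0% for the interaction. Single libraries moved these totals. Without KC888LL, the knockout library of intermediate Kcna1, 1096 genes were called for the diet in knockouts, in place of 202, and 1016 for genotype under the standard diet, in place of 1. At an unadjusted p under 0.05 there was 1 member, Enpp2 with the diet in the knockout, where 16.9% of all genes had such a p. There were 0 members for the diet in wild types (5.46% of all genes), genotype under the standard diet (14.3%), genotype under the ketogenic diet (9.22%) and the interaction (7.48%). With standard errors above 1 on the log2 scale for several members, large differences between groups could not be told from the spread between animals.

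The contrast of the diets within knockouts had the lowest median of the members. The median log2 fold change over the 10 members was -2.10, against 0.01 over all genes, and 9 of 10 were below 0, as in each of the other 3 pairwise contrasts. Ttr differed by -3.77 ± 1.78 (SE) from 255 ± 208 to 18.5 ± 11.3 CPM (SD, n = 4; edgeR, adjusted p = 0.308). Slc4a5 differed by -3.93 ± 1.95, Tmem72 by -3.39 ± 1.82, Otx2 by -2.72 ± 1.27, Clic6 by -2.15 ± 1.30, Sostdc1 by -2.05 ± 1.097 and Aqp1 by -1.75 ± 1.07 (SE), with adjusted p in edgeR from 0.298 to 0.438. Enpp2 differed by -1.41 ± 0.58 (SE), from 225 ± 79.8 to 84.3 ± 23.0 CPM (SD, n = 4; edgeR, adjusted p = 0.244). Kl differed by 0.05 ± 0.40 and Prlr by -0.35 ± 0.63 (SE), with adjusted p in edgeR of 0.964 and 0.830. Otx2 stood at -4.93 without KC935LL, and Prlr at -0.82 without KC913RR and -0.094 without KC916RRL. Kl changed sign in 4 of 17 alternatives, and stood at -0.12 without KC913RR and 0.19 without KC934R.

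Without overlap between the groups were 4 members, Otx2, Sostdc1, Tmem72 and Enpp2, all lower on the ketogenic diet, and 3.72% of all genes were lower in this way. Without KC888LL, the library of intermediate Kcna1, 8 members did not overlap, Ttr, Clic6, Aqp1 and Slc4a5 in addition, against 8.42% of all genes, and without KC935LL there were 6, against 5.72%. In the other pairwise contrasts 0 members were lower without overlap, where 2.89% (genotype, standard diet), 1.98% (genotype, ketogenic diet) and 2.42% (diet, wild types) of all genes were. For Otx2 the gap lay between 1.06 CPM in KC935LL and 1.46 CPM in KC888LL, and for Sostdc1 between 2.41 and 2.65 CPM in the same libraries. These gaps were small beside the 3.55 and 11.8 CPM that KC893RL reached. The groups of this contrast differed in sex markers, with the Y-linked gene Ddx3y at 63.2 CPM in both KC872RL and KC873RR and at most 0.150 CPM in the knockout on the ketogenic diet. Both libraries had Ttr above 100 CPM, as did KC893RL without Ddx3y, and with Xist in the model Ttr differed by -5.06 and Enpp2 by -1.74.

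When log2 CPM of Ttr was added to the model, the differences with the diet in the knockout were smaller for the 7 members that follow Ttr and larger for Kl and Prlr. That division follows from their r with Ttr in the same 16 libraries and is a description only. Tmem72 then differed by -0.02, Clic6 by -0.01, Sostdc1 by 0.04, Slc4a5 by -0.23, Enpp2 by -0.35, Aqp1 by 0.47 and Otx2 by -0.82. Kl stood at 0.66 and Prlr at 0.75. The adjusted p in edgeR ranged from 0.583 to 0.996.

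**Figure D4:**
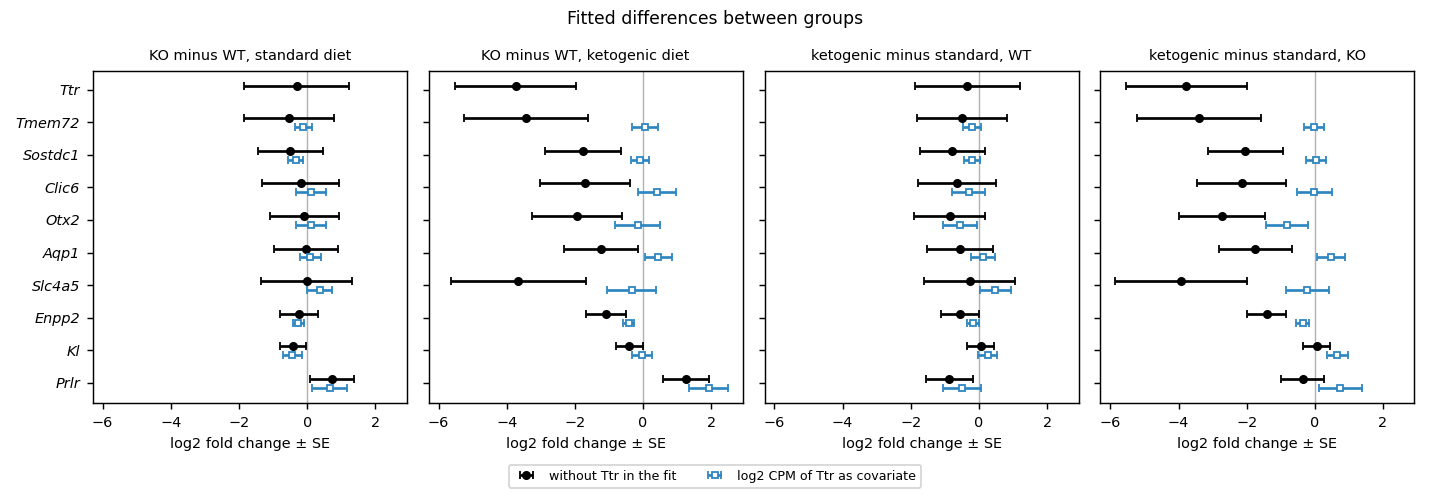
Log2 fold change with its SE for 10 genes in 4 pairwise contrasts, from the model with 1 coefficient per group (black) and, for the 9 genes other than Ttr, with log2 CPM of Ttr added (blue). In the 2 contrasts that involve the knockout on the ketogenic diet, the genes that follow Ttr lie below 0 in black and between -0.82 and 0.47 in blue.

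The genotype contrast under the ketogenic diet shares the knockout libraries with the contrast above and rested on KC844RR alone for its high wild type values. Ttr differed by -3.74 ± 1.78 (SE), from 250.01 ± 471 to 18.5 ± 11.3 CPM (SD, n = 4; edgeR, adjusted p = 0.554), by 0.38 without KC844RR and by -1.31 in limma-voom. Enpp2 differed by -1.09 ± 0.58 (edgeR, adjusted p = 0.586) and Prlr by 1.25 ± 0.67 (SE; edgeR, adjusted p = 0.593). Enpp2 stood at -0.35 without KC844RR, and Prlr at 0.79 without KC913RR and 1.85 without KC844RR. The median over the members was -1.73. Sex markers differed here too, with Ddx3y at 56.5 CPM in the wild type library KC846L, whose Ttr was 12.6 CPM.

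Under the standard diet, where the question is what the loss of Kcna1 changes, the median over the members was -0.22. Ttr differed by -0.31 ± 1.54 (SE), from 315 ± 450.0 to 255 ± 208 CPM (SD, n = 4; edgeR, adjusted p = 0.953). Enpp2 differed by -0.24 ± 0.56 (edgeR, adjusted p = 0.889) and Prlr by 0.73 ± 0.64 (SE; edgeR, adjusted p = 0.653). Without KC894RLL the Ttr difference was 1.40, and without KC888LL it was 0.07, so 1 library in either group turned its sign, and limma-voom gave 0.70. With Xist in the model Ttr differed by 0.94 and Enpp2 by 0.034, both also turned in sign. Without KC894RLL Enpp2 stood at 0.46 and Prlr at 1.42, and without KC900RLL they stood at -0.47 and 0.48.

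In wild type, ketogenic against standard diet gave a median of -0.56 over the members. Ttr differed by -0.34 ± 1.54 (SE; edgeR, adjusted p = 0.998), Enpp2 by -0.56 ± 0.57 (edgeR, adjusted p = 0.997) and Prlr by -0.87 ± 0.68 (SE; edgeR, adjusted p = 0.986). Ttr stood at -1.385 in limma-voom, at 1.36 without KC894RLL, at -4.45 without KC844RR and between 0.05 and 0.06 without KC842L, KC843RL or KC846L, and Enpp2 at 0.14 without KC894RLL and -1.30 without KC844RR. Prlr stood at -0.18 and -1.47 without these. The interaction, the difference of the diet's effect between the genotypes, stood at -3.43 ± 2.31 for Ttr, -0.85 ± 0.80 for Enpp2 and 0.52 ± 0.93 for Prlr (SE), with adjusted p in edgeR of 0.761, 0.832 and 0.922. Without KC844RR the interaction was 0.68 for Ttr, -0.11 for Enpp2 and 1.12 for Prlr, and without KC894RLL it was -5.13, -1.55 and -0.17. For Ttr limma-voom gave -2.01.

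Of the 23 further choroid genes that were tested, edgeR called 0 in any contrast. Their median log2 fold change was -1.19 with the diet in the knockout and -0.87 for genotype under the ketogenic diet. For genotype under the standard diet and for the diet in wild types it was -0.08 and -0.34. Of the lists of other cell types, edgeR called 11 of 14 oligodendrocyte genes, 4 of 5 blood genes and 1 of 9 thalamic genes lower and 1 of 12 hippocampal genes higher with the diet in the knockout, where 1.16% of all genes were called. All calls of this contrast numbered 202, against 7 with Xist in the model and 28 without KC872RL, and the lists were not recounted there. With the diet in the knockout edgeR called 0 genes of the ependymal, stromal, endothelial, mural, astrocyte and microglial lists. Though uncalled, these lists had median log2 fold changes below 0. Ependymal genes stood at -0.94 (9 of 9 lower), microglial at -0.74 (7 of 7) and stromal and meningeal at -0.57 (10 of 11). Astrocyte, mural and endothelial genes stood at -0.24 (5 of 7), -0.16 (7 of 9) and -0.15 (8 of 10). The thalamic median was -0.62 (9 of 9 lower) and the hippocampal 0.34 (1 of 12 lower). In the other 4 contrasts edgeR called 0 genes of any list.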

How the data were processed

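The authors deposited 1 table of raw counts per gene with 1 column per animal. Per the submitters' processing notes the build was mm10 and DESeq2 was used. Aligner, counting program, annotation and strand use are not given in the sources used here, so overlapping and antisense genes are uncertain. Columns gave genotype, diet and an animal tag, and each was assigned to its group only.

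Counts were fitted with edgeR 4.0.16 in R 4.3.3: filterByExpr by group, TMM factors, a robust quasi-likelihood model with 1 coefficient per group over all 16 libraries, two-sided F tests and Benjamini-Hochberg adjustment over 17469 genes. The SE of a log2 fold change was derived from its F test, as the absolute log2 fold change divided by the square root of F. Log2 CPM used a prior count of 2. Positions and exon lengths came from GENCODE M21 (GRCm38), which held 48970 of 49315 identifiers. The members and gene lists were chosen with earlier results of these data known. Named were the 10 members, the 15 genes of highest r with Ttr, examples among the 3 most abundant genes of each list, and Kcna1, Ddx3y and Xist as label checks. Otx2os1 and Gm49154, which overlap a member, and Adamts4, called with Ttr in the model, were named too. Gfap was chosen after its values were seen. The lists were further choroid, oligodendrocyte, endothelial, mural, ependymal, stromal and meningeal, blood, thalamic, hippocampal, astrocyte and microglial genes. Alternatives were other scaling factors, no count filter, DESeq2 1.42.0, limma-voom (limma 3.58.1), no robust estimation, only the groups compared, Xist or Ttr in the model, and leaving out single libraries.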

Additional observations from a re-analysis of the deposited data

Results flagged for a closer look

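Within groups of 4, 12 of the 40 combinations of gene and group had a highest library far from the other 3 by Dixon's 95% criterion. Chance meets it in about 1 in 20 groups where values are normally distributed. Here it was applied to CPM without a log, which are skewed, so that rate does not hold and 12 of 40 cannot be set against it. The genes share their libraries, so the combinations are not independent. KC844RR, wild type on the ketogenic diet, accounted for 9 of them. It held Ttr at 957 CPM against 20.2 CPM in the next library, Tmem72 at 16.9 against 0.324 CPM, Slc4a5 at 7.25 against 0.228 CPM and Sostdc1 at 18.5 against 1.73 CPM. Otx2 measured 4.596 against 0.270 CPM there, Clic6 21.4 against 1.67 CPM, Aqp1 6.07 against 0.965 CPM, Enpp2 397 against 117 CPM and Kl 47.5 against 22.8 CPM.

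KC894RLL, wild type on the standard diet, stood apart in Aqp1 at 8.42 against 1.53 CPM and in Slc4a5 at 7.74 against 1.25 CPM. KC935LL, knockout on the ketogenic diet, stood apart in Otx2 at 1.06 against 0.111 CPM.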

How the results depend on the processing

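No member that could be tested was called in any contrast under the alternatives run, 17 for each pairwise contrast and 24 for the interaction. Ttr has no test in the fit that holds it as a covariate, which leaves 9 members, and with only the groups compared 7 members passed the count filter for genotype under the ketogenic diet and 9 for the diet in either genotype. For all 10 members with the diet in the knockout, and for Ttr, Enpp2 and Prlr in the other 4 contrasts, 389 log2 fold changes were recomputed, and 368 kept their direction and 21 changed sign, 14 of these with 1 library left out. With Xist as a covariate, genotype under the standard diet gave 0.94 for Ttr and 0.034 for Enpp2, and the diet in the knockout gave -0.094 for Kl. Limma-voom gave 0.70 for Ttr in the former. With Ttr as a covariate the diet in the knockout gave 0.47 for Aqp1, 0.038 for Sostdc1 and 0.75 for Prlr, and genotype under the ketogenic diet gave -0.43 for Enpp2 and 1.92 for Prlr. Leaving out each library in turn, Ttr ranged from -0.88 to 1.40 for genotype under the standard diet, from -4.14 to 0.38 for genotype under the ketogenic diet, from -4.45 to 1.36 with the diet in wild type and from -5.13 to 0.68 for the interaction. For Enpp2 the lowest and highest values were -0.47 and 0.46 for genotype under the standard diet and -1.30 and 0.14 with the diet in wild type. Prlr ranged from -0.17 to 1.12 for the interaction, and Kl from -0.12 to 0.19 with the diet in the knockout. The cause was not tested. The likeness of Kl was 0.26 by Spearman's rho and 0.42 without the library of highest Ttr. Centred on group means it was 0.70, at rank 151, and against the further choroid list in place of Ttr 0.67. That of Prlr was 0.66 centred on group means, at rank 216, and that of Slc4a5 was 0.68 by rho. No paired analysis was possible because the columns carry no replicate number. Counts of 1 to 5 for Slc4a5 and 3 to 14 for Tmem72 limit what can be read among the 10 libraries of low Ttr.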

Other observations

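With the diet in the knockout, edgeR called 202 of 17469 genes, 166 of them lower. The count was 28 without KC872RL, 46 without KC873RR, 87 without KC913RR, 88 without KC916RRL and 1096 without KC888LL, and 7 with Xist in the model. It was 9 with only the groups compared and 677 in DESeq2. The median r with Ttr of those 166 was 0.57, 0 of them had an r over 0.9 and 1 had an r over 0.8. They were chosen as lower in the group where Ttr reached at most 31.2 CPM. A positive r over the same libraries follows in part from that choice. With log2 CPM of Ttr in the model 2 genes were called, Adamts4 and Hbb-bt, both among the 202. The median log2 fold change of the oligodendrocyte genes was -0.85 without and -0.73 with Ttr in the model, with 11 and 0 genes called, and that of the blood genes was -2.02 and -1.82, with 4 and 1 called. The median SE over all genes rose from 0.122 to 0.141. Ttr and the groups are related in these libraries, so calls lost in this way cannot be told apart from the lower precision.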
